A study of Mus musculus with 23 samples.

Results

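Neutrophils store proteases and antimicrobial proteins in granules, and 10 genes of this programme were followed across 23 mouse liver RNA-seq libraries, out of 24440 genes in the count table. The 10 were picked by name: Elane, Mpo, Prtn3 and Ctsg of the azurophil granules, Ltf, Camp and Ngp of the specific granules, the cytosolic pair S100a8 and S100a9, and Csf3r, the receptor for granulocyte colony-stimulating factor (G-CSF). All 10 symbols were found in the table. Livers came from male C57Bl/6 mice, bought at 6 to 8 weeks of age and kept for 15 weeks on normal chow or on a high-fat diet (HFD) with 60% of its kcal from fat. The groups were dKO_HFD and dKO_chow (IL-10/IL-4 double knockout), IL4KO_HFD and IL4KO_chow (IL-4 knockout), and WT_HFD and WT_chow (wild type), with 4 mice in each except 3 in IL4KO_HFD. Livers were perfused before sampling, and each library is 1 mouse; replicate numbers only name the mice. The labels do not give the alleles or say whether mice of a group were littermates or cagemates.

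A neutrophil makes its granule proteins one set after another as it matures in the bone marrow. The azurophil set is transcribed in promyelocytes, the specific granule set in myelocytes and metamyelocytes, and the S100 pair and the G-CSF receptor remain high in the mature cell. Transcripts of the azurophil set are therefore known mainly from bone marrow, and those of the S100 pair from circulating neutrophils and inflammatory monocytes. In bulk liver, more cells of a type and more RNA per cell cannot be told apart.

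The promoters of Elane, Prtn3, Ngp and S100a8 are shown because these genes span the azurophil, specific granule and cytosolic sets, and because Elane and Prtn3 are neighbours on chromosome 10 that differed across libraries. Each is the 250 bases before the RefSeq start on GRCm38.p6, written in the direction of transcription. Capitals mark matches on either strand to TTNNGNAA, a core of the site of C/EBP, a factor family of granulocyte genes, or to GAGGAA, a core of the site of PU.1, a myeloid factor. No match of one motif overlapped a match of the other.
Elane, chr10:79886062-79886311, plus strand: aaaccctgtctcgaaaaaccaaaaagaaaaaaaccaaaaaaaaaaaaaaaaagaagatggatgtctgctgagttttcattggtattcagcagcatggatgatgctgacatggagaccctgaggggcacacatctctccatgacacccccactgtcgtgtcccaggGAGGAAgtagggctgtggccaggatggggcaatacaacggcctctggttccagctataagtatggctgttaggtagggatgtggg
Prtn3, chr10:79879417-79879666, plus strand: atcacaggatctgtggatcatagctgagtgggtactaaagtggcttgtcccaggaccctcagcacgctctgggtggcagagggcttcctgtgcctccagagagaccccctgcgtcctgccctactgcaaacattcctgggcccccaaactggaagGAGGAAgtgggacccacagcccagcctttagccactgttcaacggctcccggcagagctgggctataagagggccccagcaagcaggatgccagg
Ngp, chr9:110419558-110419807, plus strand: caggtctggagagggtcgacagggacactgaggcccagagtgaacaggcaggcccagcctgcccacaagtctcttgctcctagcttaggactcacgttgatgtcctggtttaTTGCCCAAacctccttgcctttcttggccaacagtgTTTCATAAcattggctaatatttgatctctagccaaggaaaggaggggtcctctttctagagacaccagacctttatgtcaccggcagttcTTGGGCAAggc
S100a8, chr3:90668821-90669070, plus strand: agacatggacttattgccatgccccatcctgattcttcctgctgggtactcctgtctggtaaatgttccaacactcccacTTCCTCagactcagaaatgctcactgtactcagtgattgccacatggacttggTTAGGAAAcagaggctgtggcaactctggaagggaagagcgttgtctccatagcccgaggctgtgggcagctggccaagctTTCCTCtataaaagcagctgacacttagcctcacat
Elane and Prtn3 each held 1 PU.1 match, centred 82 and 92 bases before the start, and neither held a C/EBP match. Ngp held 3 C/EBP matches and no PU.1 match, and S100a8 held both motifs. Across the 10 genes, 7 promoters held GAGGAA and 4 held TTNNGNAA, beside 23.3% and 36.8% of 32851 promoters of the same length. These are matches of letters, and no binding was measured. In GENCODE M21, an annotation with other starts than RefSeq, 3072 bases separate the end of the Prtn3 transcript from the start of the Elane transcript. Its transcripts of Elane, Prtn3, Ngp and S100a8 start at 79886247, 79879614, 110419747 and 90668978, inside the stretches printed above. The end of each stretch is thus transcribed in that annotation, and it holds the last match of Ngp and of S100a8.

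Library totals, counted in units of 1e6, were 16.2 to 30.2 in dKO_chow and 7.79 to 8.94 in IL4KO_HFD, and lay between 7.11 and 30.2 overall. Levels are CPM, counts scaled to the size of the library. A level of 3 counts corresponded to 0.0896 CPM in the deepest library and 0.429 CPM in the shallowest, so the low values below rest on a few counts. The targeted gene Il10 had 41 to 67 counts in dKO_chow and 6 to 21 in dKO_HFD, against 0 to 2 in WT_chow and 0 to 4 in WT_HFD, which goes against the label. Il4 had 0 to 3 counts in any library. The labels do not say which exons were removed, so these counts check little, and dKO means the libraries labelled so. On the first principal component the library labelled dKO_HFD replicate 4 lay at 43.1, between 64.6 to 74.8 for dKO_chow and -17.2 to -10.2 for the other dKO_HFD libraries. Results that rest on it are given with and without it. Hepatocyte markers (6 genes) summed to 85000 to 142000 CPM and were abundant in every library.

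On chow, the libraries labelled dKO held far more granule transcript than those of either other genotype. All 10 genes were called higher in dKO_chow than in WT_chow, and the 4 dKO_chow values lay above all WT_chow values for each of them. The same was true against IL4KO_chow. The share of all tested genes whose groups lay apart in this way is not given, so the separation is a description. The fitted difference from WT_chow ran from 4.37-fold for Csf3r to 59.8-fold for Ltf. It was 414-fold for Ltf without WT_chow replicate 1, a value that rested on 2 WT_chow counts. A gene was called at an FDR below 0.05 by edgeR's quasi-likelihood test. Of 12891 tested genes, 24.4% were called higher in dKO_chow than in WT_chow and 23% higher than in IL4KO_chow, so a large part of the transcriptome moved with the same contrast. All 10 genes passed the filter on low counts, but Elane, Mpo, Ctsg and Camp passed it only through their dKO_chow values and had to differ, so the count of 10 is a description. The median log2 difference was 4.89 over the 10 genes against WT_chow and 0.02 over all tested genes.

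**Figure D1:**
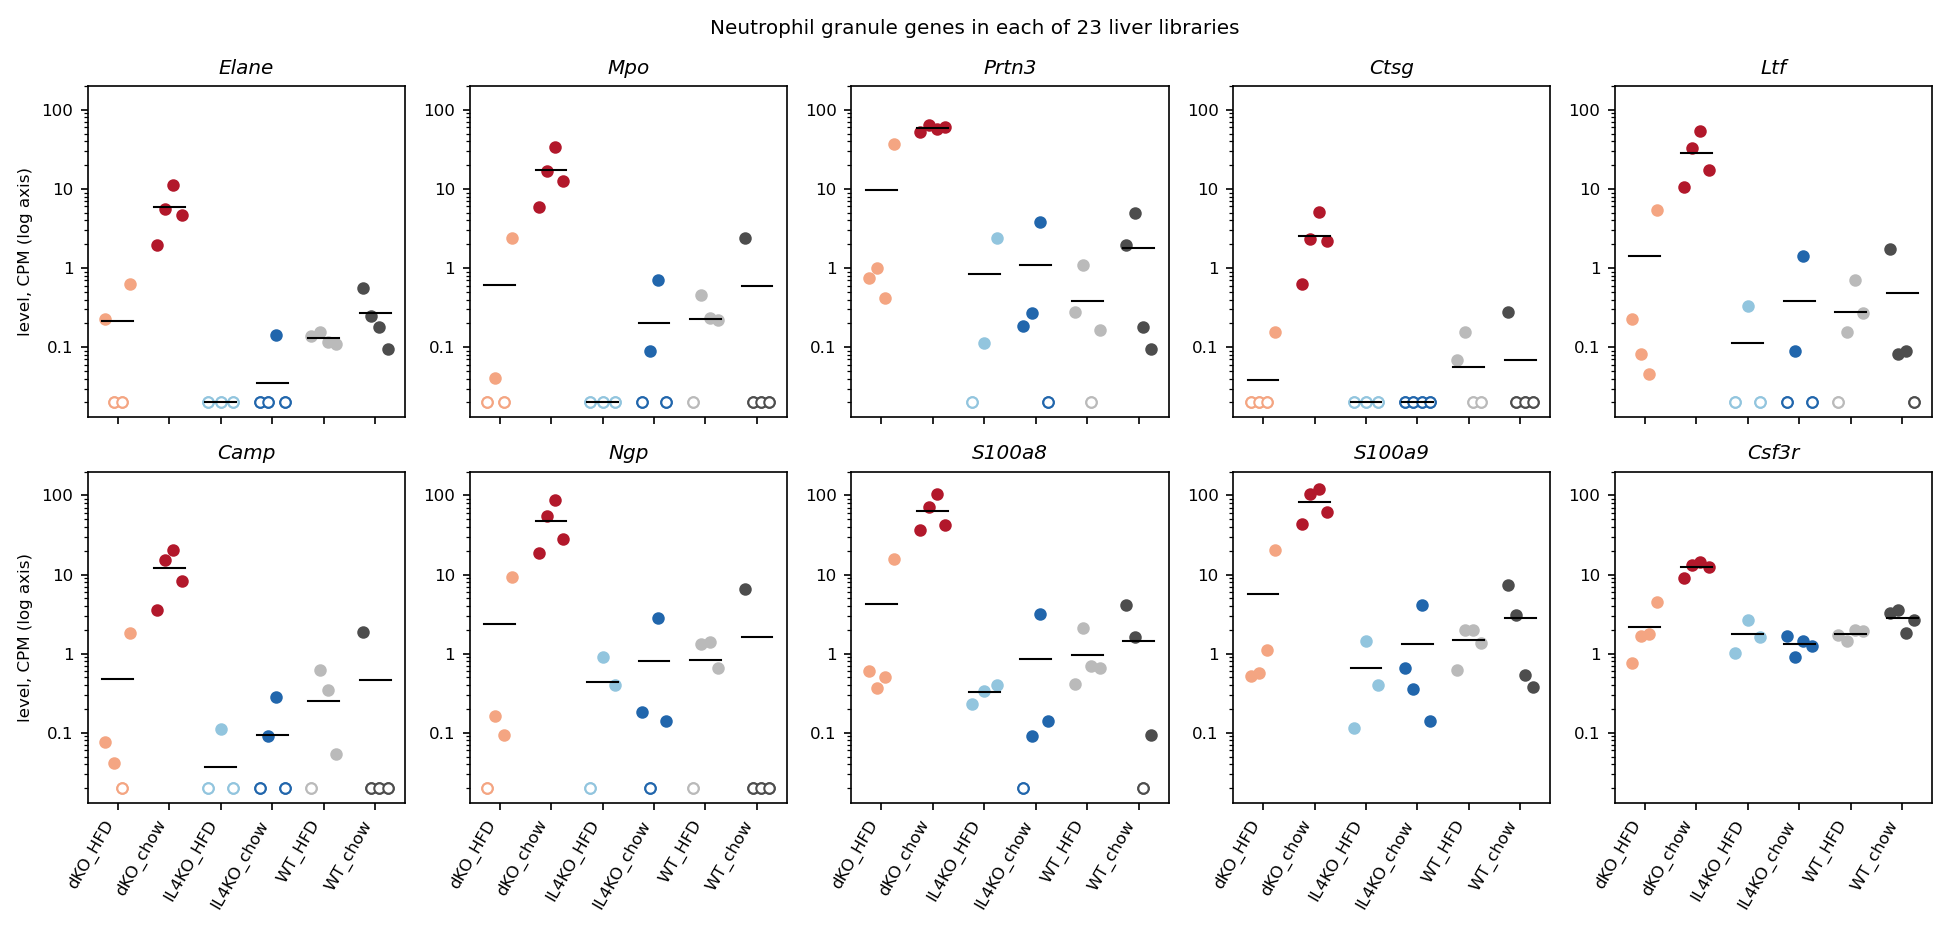
Level of each gene in CPM (log axis) in every library, by group. Filled points are libraries, open points at the bottom are libraries with 0 counts, and black bars are group means. The 4 dKO_chow libraries lie above the WT_chow and IL4KO_chow libraries for every gene, and 1 dKO_HFD library, replicate 4, lies above the other 3. The separation is a description, given without the share of all tested genes that lay apart. Elane, Mpo, Ctsg and Camp passed the filter on low counts only through dKO_chow.

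Among the azurophil genes, Elane encodes neutrophil elastase, a serine protease. Elane had 1.96, 5.62, 11.1 and 4.67 CPM in the dKO_chow libraries, against 0, 0, 0.143 and 0 CPM in IL4KO_chow and 0.555, 0.245, 0.181 and 0.094 CPM in WT_chow. On HFD it had 0.226, 0, 0 and 0.625 CPM in dKO_HFD, 0 CPM in all 3 IL4KO_HFD libraries and 0.139, 0.154, 0.117 and 0.109 CPM in WT_HFD. The dKO_chow values stood apart from all others, and replicate 3 was the highest of them. The log2 difference between dKO_chow and WT_chow was 4.39 ± 0.67 (SE), with an edgeR FDR of 4.65e-05.

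Mpo encodes myeloperoxidase, which makes hypochlorous acid. Its levels were 5.98, 16.9, 34 and 12.7 CPM in dKO_chow, against 2.4 CPM in WT_chow replicate 1 and 0 in the other 3 WT_chow libraries. IL4KO_chow libraries had at most 0.715 CPM. The WT_chow libraries were therefore uneven, with all 26 Mpo counts of the group in 1 mouse. The difference from WT_chow was 4.87 ± 1.07 on the log2 scale (edgeR FDR 0.00164), and DESeq2 gave an adjusted p of 0.0587, above the threshold. An antisense gene lies inside Mpo in the annotation, and the strand setting of the counting is not given in the sources used here.

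Ctsg, encoding cathepsin G, was the lowest of the set. It had 13, 79, 87 and 47 counts in dKO_chow, against 0 in every IL4KO_chow library and 3, 0, 0 and 0 in WT_chow. Its level averaged 2.56 ± 1.85 CPM in dKO_chow (SD, n = 4), at least 29.2-fold higher than in IL4KO_chow, taking 3 counts over that group as the limit.

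Prtn3, encoding proteinase 3, behaved unlike its neighbour Elane. It had 52.4, 64.8, 57.1 and 60.4 CPM in dKO_chow, against 0.185, 0.271, 3.86 and 0 CPM in IL4KO_chow and 1.94, 4.97, 0.181 and 0.094 CPM in WT_chow. The 4 dKO_chow values lay within 1.24-fold of each other, whereas those of Elane spanned 5.65-fold and those of Ctsg 8.16-fold. In WT_chow the highest library was replicate 2 for Prtn3 but replicate 1 for Elane, Mpo and Ctsg. The difference from WT_chow was 4.97 ± 1.17 on the log2 scale (edgeR FDR 0.00235), or 31.3-fold, and 77.6-fold without WT_chow replicate 2.

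The ratio of Prtn3 to Elane counts varied between livers with the same label. It was 26.7, 11.5, 5.15 and 12.9 in the dKO_chow libraries, and 59.2 in dKO_HFD replicate 4, which had 8 Elane counts. In WT_chow replicate 1, with 6 Elane counts, it was 3.5. The other libraries had at most 3 Elane counts, and no ratio was taken. Among them WT_chow replicate 2 had 61 Prtn3 and 3 Elane counts, and IL4KO_chow replicate 3 had 27 and 1. Lppr3, which lies on the opposite strand and overlaps an extended Prtn3 transcript in the annotation, had 15 to 35 counts in dKO_chow and 0 to 2 in WT_chow, beside 978 to 2168 Prtn3 counts in dKO_chow and 1 to 61 in WT_chow.

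The specific granule genes kept the order of the dKO_chow libraries seen for Elane. Ngp, encoding neutrophilic granule protein, had 18.5, 55.3, 88.7 and 28.5 CPM in dKO_chow, against 0.185, 0, 2.86 and 0.139 CPM in IL4KO_chow and 6.47, 0, 0 and 0 CPM in WT_chow. Ltf, encoding the iron-binding protein lactoferrin, had 10.6, 32.7, 54.2 and 17.5 CPM in dKO_chow, against 1.76, 0.0815, 0.0906 and 0 CPM in WT_chow. Camp, encoding the cathelicidin antimicrobial peptide, had 3.59, 15.4, 20.7 and 8.26 CPM in dKO_chow, against 1.85, 0, 0 and 0 CPM in WT_chow. In all 3 genes dKO_chow replicate 3 was highest and replicate 1 lowest, as in each of the 10 genes but Prtn3, whose highest was replicate 2. WT_chow replicate 1 carried nearly all of the wild-type counts. The log2 differences from WT_chow were 4.91 ± 1.17 for Ngp, 5.90 ± 1.09 for Ltf and 4.70 ± 0.97 for Camp, with edgeR FDR of 0.00258, 0.00034 and 0.000782.

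The single WT_chow mouse set the size of these folds. Without WT_chow replicate 1, the group had no count of Ngp, Mpo, Camp or Ctsg, and dKO_chow was at least 532-fold higher for Ngp, at least 188-fold for Mpo, at least 137-fold for Camp and at least 27.5-fold for Ctsg. The fitted fold was then 414 for Ltf, 98.9 for S100a8 and 57 for S100a9, instead of 59.8, 43.3 and 28.9 with all libraries. These folds rested on 2, 21 and 48 counts in the remaining WT_chow libraries, and the log2 difference for Ltf was 8.69 ± 1.58. Erythroid markers, a sign of retained blood, summed to 214 CPM in WT_chow replicate 1, within the 202 to 446 CPM of its group, and the part of retained blood was not tested. IL4KO_chow replicate 3 stood in the same place in its own group, with 2.86 CPM of Ngp, 1.43 CPM of Ltf and 3.15 CPM of S100a8. Without it, dKO_chow was at least 54.1-fold higher than IL4KO_chow for Elane, and the fitted fold was 326 for Prtn3 and 196 for S100a9, instead of 63.7 and 70.2. The fitted folds rested on 5 Prtn3 and 12 S100a9 counts in the remaining IL4KO_chow libraries.

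S100a8 and S100a9 encode the chains of calprotectin, which binds zinc and manganese and is abundant in the neutrophil cytosol. S100a8 had 36, 72.2, 103 and 42.1 CPM in dKO_chow, against 0, 0.0903, 3.15 and 0.139 CPM in IL4KO_chow and 4.07, 1.63, 0 and 0.094 CPM in WT_chow. S100a9 had 43.1, 103, 121 and 61.9 CPM in dKO_chow, against 0.649, 0.361, 4.15 and 0.139 CPM in IL4KO_chow and 7.31, 3.1, 0.543 and 0.376 CPM in WT_chow. The pair kept the same order of dKO_chow libraries, with S100a8 at 0.679 to 0.845 counts per S100a9 count. The log2 differences from WT_chow were 5.43 ± 1.03 for S100a8 (edgeR FDR 0.000415) and 4.85 ± 0.94 for S100a9 (edgeR FDR 0.000491).

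Csf3r, through which G-CSF drives neutrophil production and release, varied least of the 10 genes across the 23 libraries, with an SD of 1.17 on the log2 scale, against 1.57 to 3.11 for the other 9. It was counted in every library, with 9.1, 13, 14.6 and 12.5 CPM in dKO_chow, against 1.67, 0.903, 1.43 and 1.25 CPM in IL4KO_chow and 3.24, 3.51, 1.81 and 2.63 CPM in WT_chow. Its rise over WT_chow was smaller than that of the granule genes, at 2.13 ± 0.32 on the log2 scale (edgeR FDR 2.41e-05), and its rise over IL4KO_chow was 3.22 ± 0.37 (edgeR FDR 1.32e-06).

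Levels of different genes can be set beside each other only per kilobase of transcript. In dKO_chow these were 159 ± 69.6 CPM per kilobase for S100a9 and 130 ± 63 for S100a8, then 57.3 ± 5.11 for Prtn3 and 39.1 ± 25.7 for Ngp (SD, n = 4). Camp followed with 15.8 ± 9.96, Ltf with 10.5 ± 7.04, Mpo with 6.33 ± 4.33, Elane with 5.92 ± 3.89, Csf3r with 3.53 ± 0.669 and Ctsg with 2.55 ± 1.85 CPM per kilobase. Neighbours in this order differed by less than the larger of their SDs, apart from the step between S100a8 and Prtn3. Prtn3 thus stood above the other azurophil genes, which lay in the lower part of the order.

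On HFD the libraries labelled dKO held little of this signal, and those of 3 mice almost none. All 10 genes were called lower in dKO_HFD than in dKO_chow, beside 20.5% of all tested genes called lower. Elane, Mpo, Ctsg and Camp passed the filter on low counts only through their dKO_chow values and had to differ, so this count too is a description. The 4 values of dKO_HFD lay below the 4 of dKO_chow for every gene, a description given without the share of all tested genes that lay apart. S100a9 had 0.527, 0.577, 1.11 and 20.3 CPM in dKO_HFD, against the 43.1 to 121 CPM of dKO_chow. Ngp had 0, 0.165, 0.0929 and 9.22 CPM in dKO_HFD, and Prtn3 had 0.753, 0.989, 0.418 and 37 CPM. In S100a9, dKO_HFD replicates 1 and 2 lay below the WT_HFD livers, which had 0.626 to 2 CPM, replicate 3 lay within their range, and replicate 4 lay between these and dKO_chow.

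The log2 difference between dKO_HFD and dKO_chow was -5.08 ± 0.68 for Elane, -5.12 ± 1.04 for Mpo and -6.10 ± 0.93 for Ctsg. Among the specific granule genes it was -4.58 ± 0.92 for Ltf, -4.95 ± 0.95 for Camp and -4.57 ± 1.10 for Ngp. S100a8 differed by -4.07 ± 0.88, S100a9 by -4.03 ± 0.85 and Csf3r by -2.53 ± 0.32, and these 9 genes had edgeR FDR from 7.26e-06 to 0.00336. Prtn3 had the weakest evidence, at -2.69 ± 0.95 with an edgeR FDR of 0.0322. DESeq2 called 7 of the 10 lower and gave adjusted p of 0.166 for Prtn3, 0.0657 for Mpo and 0.0736 for Ngp. The Prtn3 call was lost when any 1 of dKO_HFD replicates 1 to 3 or any 1 dKO_chow library was left out (edgeR FDR 0.0503 to 0.0884). The call was also lost when the 2 groups were fitted alone (edgeR FDR 0.145).

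Without dKO_HFD replicate 4 the differences were larger, and the contrast between Prtn3 and Elane was gone. Prtn3 then differed by -6.31 ± 0.78 and Elane by -6.57 ± 0.76. The specific granule genes differed by -8.76 ± 1.35 for Ngp and -8.01 ± 1 for Ltf, S100a8 by -7.02 ± 0.80, S100a9 by -6.74 ± 0.74 and Csf3r by -3.07 ± 0.27. The other 3 dKO_HFD libraries held only 6 counts each of Ngp and Ltf, and fewer of Mpo, Camp, Elane and Ctsg. Mpo had 1 count in them, against 1546 in dKO_chow, and was 983-fold lower (exact Poisson 95% interval 176 to 38900, counting error only). Camp had 2 counts, against 1121, and was 356-fold lower (98.4 to 2950), and Elane had 3, against 519, and was 110-fold lower (37.4 to 535). Ctsg had 0 counts, against 226, and was at least 47.9-fold lower, taking 3 counts over the 3 libraries as the limit. All 10 genes were called lower in that fit (edgeR FDR from 9e-09 to 0.000172), beside 23.8% of all tested genes, with the same limit set by the filter.

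**Figure D2:**
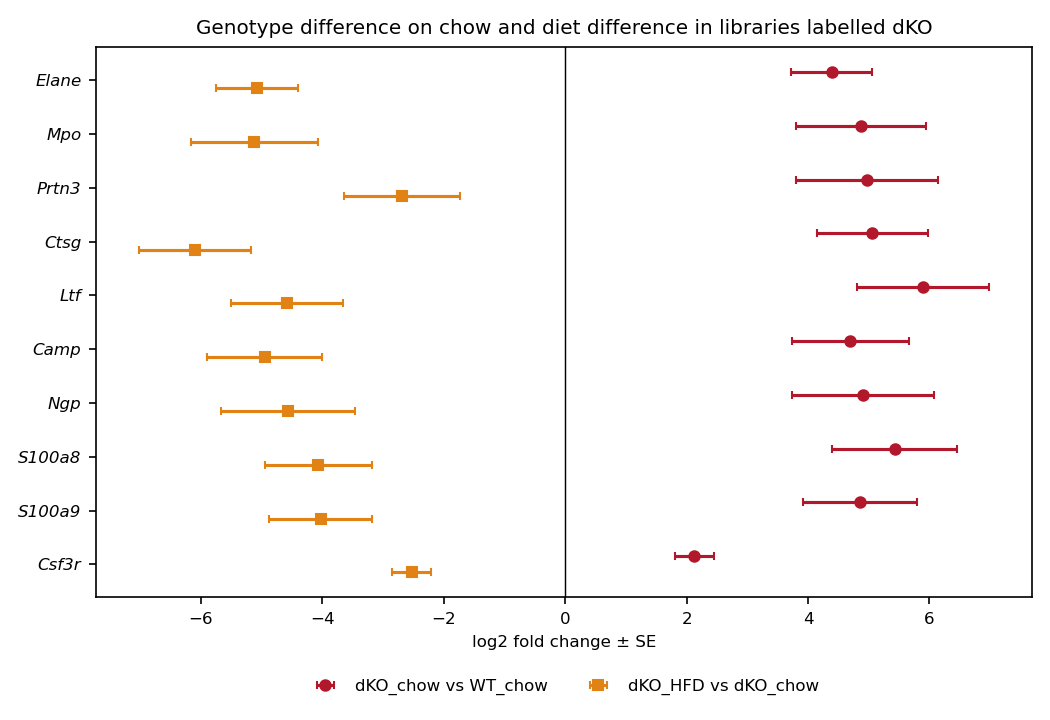
Log2 fold change with its SE (bars) for each gene, for dKO_chow against WT_chow (circles) and dKO_HFD against dKO_chow (squares). Csf3r has the smallest changes and the shortest bars, at 2.13 and -2.53, and Prtn3 has a diet difference of -2.69, beside -5.08 for Elane; without dKO_HFD replicate 4, which is included in the plot, these were -6.31 and -6.57.

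The dKO_HFD library that stood apart held the 10 genes at unequal shares of their dKO_chow means. Its Ctsg level was 6.09% of the dKO_chow mean, and its Elane, Mpo and Camp levels were 10.7%, 13.9% and 15%. Ltf and Ngp were at 18.7% and 19.3%, S100a8 and S100a9 at 24.6% and 24.7%, and Csf3r at 36.9%. Prtn3 was at 63.1%. The azurophil genes Ctsg, Elane and Mpo stood lowest and the azurophil gene Prtn3 highest. A chow liver, dKO_chow replicate 1, had the same genes at the ends, with 24.3% of the group mean for Ctsg and 89.3% for Prtn3, and 30 to 74% for the other 8. In dKO_chow replicate 3, where most of the genes were highest, Ctsg was at 198% and Prtn3 at 97.3%. The dKO_HFD values are those of 1 mouse, with 8 counts of Elane and 2 of Ctsg, and have no replicate.

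**Figure D3:**
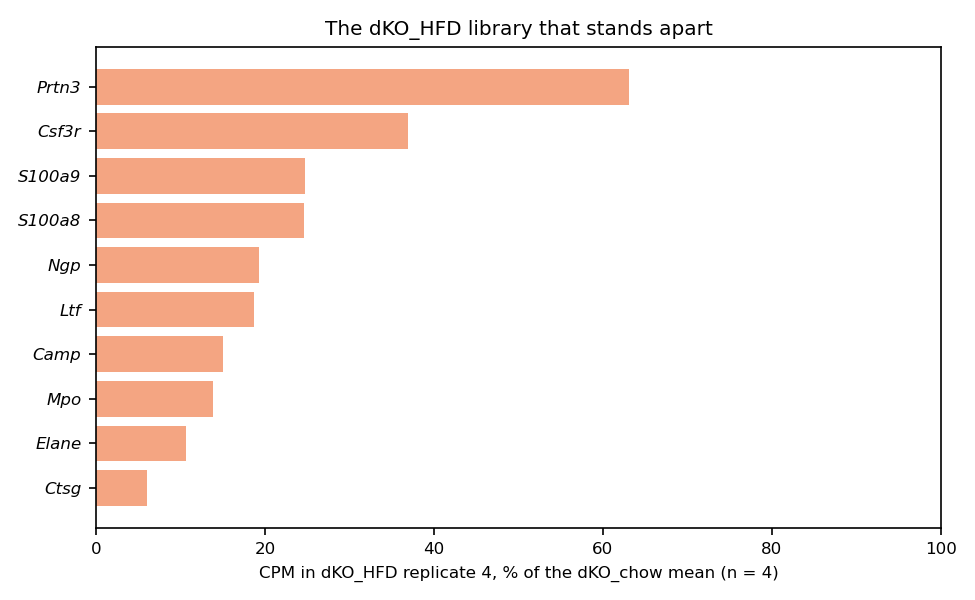
CPM of each gene in dKO_HFD replicate 4 as a percentage of the dKO_chow mean of 4 mice. The bars run from 6.09% for Ctsg to 63.1% for Prtn3, with 1 library behind each bar.

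Between dKO_HFD and WT_HFD only Prtn3 was called, at a log2 difference of 4.52 ± 1.58 (edgeR FDR 0.0451), where 12.9% of all tested genes were called higher. The Prtn3 values of the groups overlapped, with 0.753, 0.989, 0.418 and 37 CPM in dKO_HFD, against 0.278, 1.08, 0 and 0.164 CPM in WT_HFD. Without dKO_HFD replicate 4 the difference was 0.89 ± 1.36 (edgeR FDR 0.674), so the call rests on that library. Between dKO_HFD and IL4KO_HFD none of the 10 was called (2.51% of all tested genes were, in either direction), with none at an unadjusted p below 0.05 and none by DESeq2 or by limma.

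Whether diet acted differently by genotype was tested as an interaction. Csf3r was the 1 gene called. Its diet difference was lower by 1.88 on the log2 scale in dKO than in WT (SE 0.49, edgeR FDR 0.00959) and by 2.98 in dKO than in IL4KO (SE 0.58, edgeR FDR 0.00199). Of all tested genes, 12.6% were called lower in the dKO minus WT interaction and 11.7% in the dKO minus IL4KO interaction. These 2 interactions share the dKO libraries. The interactions of the granule genes had large errors, such as -4.08 ± 1.55 for Elane (edgeR FDR 0.06) and -3.54 ± 2.17 for Ngp (edgeR FDR 0.242) in dKO minus WT. Without dKO_HFD replicate 4, 8 of the 10 were called lower in dKO minus WT, beside 16.9% of all tested genes, all but Prtn3 (edgeR FDR 0.0911) and Ctsg (edgeR FDR 0.0564). Elane, Mpo and Camp, among the 8, passed the filter on low counts only through their dKO_chow values, so the count is a description. Without it, 3 of the 10, Csf3r, Prtn3 and S100a9, were called lower in dKO minus IL4KO, beside 15.9% of all tested genes.

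Outside the libraries labelled dKO the 10 genes were low and none was called. This held for IL4KO_chow against WT_chow (9.61% of all tested genes called in either direction), IL4KO_HFD against WT_HFD (3.02%), WT_HFD against WT_chow (19.5%), IL4KO_HFD against IL4KO_chow (9.08%) and the IL4KO minus WT interaction (0.0465%). DESeq2 and limma also called none of the 10 in these 5, and 1 was at an unadjusted p below 0.05, Csf3r in IL4KO_chow against WT_chow. Its 4 IL4KO_chow values, 0.903 to 1.67 CPM, lay below the 4 WT_chow values, 1.81 to 3.51 CPM, with a log2 difference of -1.10 ± 0.41 (edgeR FDR 0.0935). Without dKO_HFD replicate 4 in the fit, its edgeR FDR was 0.0209, where 11.5% of all tested genes were called in either direction. On HFD Csf3r averaged 1.78 ± 0.838 CPM in IL4KO_HFD (n = 3) and 1.79 ± 0.244 CPM in WT_HFD (n = 4).

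The 10 genes summed to 3.16 to 97 CPM in dKO_HFD, 182 to 509 CPM in dKO_chow, 1.37 to 5.92 CPM in IL4KO_HFD, 1.67 to 18 CPM in IL4KO_chow, 3.27 to 9.47 CPM in WT_HFD and 2.81 to 29.9 CPM in WT_chow. The highest value outside dKO was that of WT_chow replicate 1, and every dKO_chow library lay above every other library of the series.

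Other granule proteins followed the same division. Of 12 listed, 10 were tested and 9 were called higher in dKO_chow than in WT_chow, beside 24.4% of all tested genes. All 10 tested were lower in dKO_HFD than in dKO_chow, beside 20.5% of all tested genes. Mmp8, Mmp9 and Pglyrp1 passed the filter only through their dKO_chow values and had to differ. The list was also chosen with earlier results of these data known, so the counts are a description. Itgam, the integrin chain stored in specific and gelatinase granules, averaged 9.04 ± 2.79 CPM in dKO_chow and 0.744 ± 0.37 CPM in WT_chow. Mmp9, gelatinase B, averaged 8.17 ± 2.85 CPM in dKO_chow and 0.298 ± 0.21 CPM in WT_chow. Mmp8, neutrophil collagenase, averaged 8.08 ± 3.57 CPM in dKO_chow and 0.139 ± 0.177 CPM in WT_chow. Pglyrp1, which binds bacterial peptidoglycan, had a fitted log2 difference of 5.05 ± 0.81. Lcn2, named after its values were seen, encodes a siderophore-binding protein that hepatocytes also make, and had 1170 ± 172 CPM in dKO_chow against 31.4 ± 40.4 CPM in WT_chow.

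Of 19 listed genes of the mature neutrophil, 12 were tested. All 12 were called higher in dKO_chow than in WT_chow and lower in dKO_HFD than in dKO_chow, beside 24.4% and 20.5% of all tested genes. The other 7 were under the filter, and 8 of the 12 passed it only through their dKO_chow values and had to differ, among them Retnlg, Mcemp1, Clec4d and Cxcr2, so the count is a description. Retnlg averaged 8.75 ± 3.35 CPM in dKO_chow and 0.313 ± 0.372 CPM in WT_chow. Fpr1, a receptor for formylated bacterial peptides, averaged 9.63 ± 2.03 CPM in dKO_chow and 3.28 ± 0.686 CPM in WT_chow. The fitted log2 difference was 5.71 ± 0.83 for Mcemp1 and 4.15 ± 0.65 for Clec4d. Cxcr2, the receptor for the attracting chemokines, averaged 4.41 ± 1.15 CPM in dKO_chow and 0.441 ± 0.307 CPM in WT_chow. Ly6g, the defining surface marker of mouse neutrophils, was under the filter, with 6 to 29 counts in dKO_chow and 0 in every WT_chow, IL4KO_chow and IL4KO_HFD library.

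Of 7 precursor genes, 4 were tested and 2 were called higher, beside 24.4% of all tested genes. The 2 were Ms4a3 and Flt3, both of which passed the filter only through dKO_chow and had to differ. Ms4a3, a marker of granulocyte and monocyte progenitors, had 9 to 54 counts in dKO_chow and 0 to 1 in WT_chow. Fcnb, a ficolin of developing granulocytes that was under the filter and is named after its values were seen, had 10 to 54 counts in dKO_chow and 0 in all other libraries. Cebpe, a factor of the specific granule genes, averaged 7.14 ± 1.12 CPM in dKO_chow and 6.19 ± 0.528 CPM in WT_chow (edgeR FDR 0.286), and Kit averaged 5.24 ± 0.715 CPM in dKO_chow and 4.03 ± 0.907 CPM in WT_chow (edgeR FDR 0.128).

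Among the signals that act on neutrophils, 9 were listed and 3 tested. Cxcl1, a chemokine that attracts neutrophils through Cxcr2, averaged 47.6 ± 15.3 CPM in dKO_chow and 4.79 ± 2.04 CPM in WT_chow, a log2 rise of 3.30 ± 0.58 (edgeR FDR 0.000203). Il1b averaged 6.71 ± 1.23 CPM in dKO_chow and 1.74 ± 0.653 CPM in WT_chow (edgeR FDR 0.000512). Ppbp differed by 1.67 ± 0.79 on the log2 scale (edgeR FDR 0.0906). Csf3, which encodes G-CSF itself, had 0 counts in every library but 1, which had 1 count.

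Of 9 inhibitors of the granule proteases, 3 were higher and 3 lower in dKO_chow than in WT_chow. These shares are near those of all tested genes, 24.4% higher and 21.9% lower. Slpi, a small inhibitor of elastase and cathepsin G, averaged 4.1 ± 0.955 CPM in dKO_chow and 0.421 ± 0.47 CPM in WT_chow, and Serpina3n averaged 1660 ± 369 CPM in dKO_chow and 569 ± 206 CPM in WT_chow. Serpina1b and Serpina1d, liver genes of the alpha-1 antitrypsin family, fell by 0.80 and 0.87 on the log2 scale (edgeR FDR 3.17e-05 and 0.000645). Serpina1 genes are near-identical copies, and the split of reads between them is uncertain. Of the 2 sensors of the S100 pair, Tlr4 was tested and differed by 0.58 ± 0.30 on the log2 scale (edgeR FDR 0.115).

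**Figure D4:**
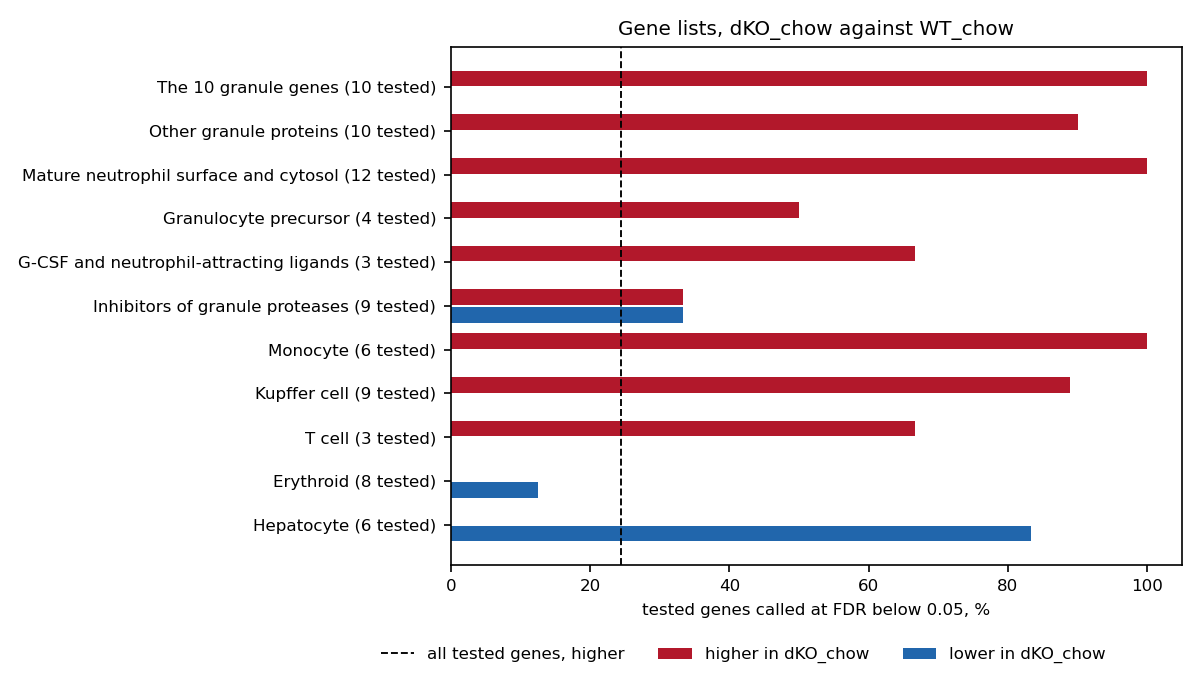
Share of the tested genes of each list called higher (upper bar) or lower (lower bar) in dKO_chow than in WT_chow, in percent. The dashed line is the 24.4% of all tested genes called higher, and every list drawn lies above it except the erythroid and hepatocyte lists. Lists of 2 to 4 tested genes move by a large step with each gene.

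Markers of other myeloid cells moved with the granule genes. Of all tested genes, 24.4% were called higher in dKO_chow than in WT_chow and 20.5% lower in dKO_HFD than in dKO_chow. All 6 monocyte markers were called higher in dKO_chow than in WT_chow and lower in dKO_HFD than in dKO_chow, with sums of 52 to 116 CPM in dKO_HFD, 170 to 217 CPM in dKO_chow and 48.6 to 90.3 CPM in WT_chow. Plac8, Ly6c2, F13a1 and Ccr2 had the lowest FDR among them, and F13a1 passed the filter only through dKO_chow. Of 9 Kupffer cell markers, 8 were higher in dKO_chow than in WT_chow and all 9 were lower in dKO_HFD than in dKO_chow, with sums of 270 to 640 CPM in dKO_HFD, 800 to 1030 CPM in dKO_chow and 304 to 557 CPM in WT_chow. S100a8 and S100a9 are also transcribed in monocytes, and the part of these cells in the results was not tested. T cell markers were low, with sums of 2.57 to 5.35 CPM in dKO_chow and 0.564 to 1.71 CPM in WT_chow, and 2 of 3 were called higher, all 3 having passed the filter only through dKO_chow.

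Erythroid markers are a sign of retained blood, whose part in the granule signal was not tested. Of 8 tested erythroid markers none was called higher in dKO_chow than in WT_chow and 1, Alas2, was called lower, with no other at an unadjusted p below 0.05. The median log2 difference of the 8 was 0.76. Their sums were 160 to 931 CPM in dKO_HFD, 193 to 549 CPM in dKO_chow and 202 to 446 CPM in WT_chow. The highest erythroid sum, 931 CPM, was that of dKO_HFD replicate 4. Eosinophil, basophil and mast cell markers summed to 0.0958 to 1.81 CPM in dKO_chow and 0 to 1.2 CPM in WT_chow, and none of the 8 was tested. One of 2 tested megakaryocyte markers and 1 of 2 tested B and plasma cell markers was higher in dKO_chow, beside 24.4% of all tested genes. Hepatocyte markers summed to 85000 to 95000 CPM in dKO_chow and 122000 to 123000 CPM in WT_chow, and 5 of 6 were lower, beside 21.9% of all tested genes.

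Genes outside the 10 were ranked for likeness of pattern by the root mean square (RMS) difference of centred log2 CPM over the 23 libraries, as a description. The values were not scaled, so the RMS reflects the size of a gene's changes as well as their pattern, and low counts limit that size. Closest to the mean of the azurophil genes were Mmp8 (RMS 0.67), Retnlg (0.69), Cd177 (0.80), Fabp5 (0.82), Slfn4 (0.84) and Mmp9 (0.88). The specific granule genes had Chil3 (0.81), Cd177 (0.85), Mmp8 (0.88), Retnlg (1.05), Mmp9 (1.13) and Cxcl14 (1.24). For S100a8, S100a9 and Csf3r they were Retnlg (0.61), Mmp8 (0.67), Cd177 (0.71), Slfn4 (0.78), Cxcr2 (0.85) and Cxcl14 (0.87). Most of these were neutrophil genes of the lists above, with Fabp5, Slfn4 and Cxcl14 outside them. Mmp8, Mmp9, Retnlg, Cd177 and Cxcr2 passed the filter on low counts only through their dKO_chow values, as did Elane, Mpo and Ctsg. A pattern high in dKO_chow was set for them in advance, so their likeness is no sign of a shared source. Within the 10, the closest pair was Mpo and Camp (0.44), followed by Elane and Ctsg (0.57), genes that all passed the filter only through dKO_chow.

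Prtn3 was the gene least like the others in its own set, at an RMS of 1.73 from Elane, 1.54 from Mpo and 2.01 from Ctsg. Part of this distance can come from size, since the SD of log2 CPM was 3.11 for Prtn3, 2.61 for Mpo, 1.89 for Elane and 1.57 for Ctsg. When Prtn3 and Elane were ranked alone, a step added after the values were seen, the genes outside the 10 nearest to Elane were Slfn4 (0.68), Rasal1 (0.69) and Pglyrp1 (0.71), while Ctsg (0.57) was nearer. Elane, Pglyrp1 and Ctsg passed the filter only through dKO_chow, with the same limit. S100a8 (1.13) and S100a9 (1.27) were the genes of the 10 nearest to Prtn3. Outside the 10 the nearest to Prtn3 were Saa1 (1.29), Saa2 (1.32) and Orm2 (1.5), which encode acute phase proteins secreted by hepatocytes. Saa1 had 107, 69.7, 101 and 1810 CPM in dKO_HFD, 4450, 2920, 6040 and 5300 CPM in dKO_chow, 87, 104, 712 and 22.1 CPM in IL4KO_chow and 42.5, 527, 17.7 and 27 CPM in WT_chow. The libraries highest in Saa1 in dKO_HFD, IL4KO_chow and WT_chow, replicates 4, 3 and 2, were also those highest in Prtn3. IL4KO_HFD replicate 3, with 398 CPM of Saa1, had 18 counts of Prtn3 and no count of Elane, Mpo or Ctsg. The match did not hold everywhere: in dKO_chow Prtn3 was highest in replicate 2, where Saa1 was lowest, and in WT_HFD it was at 0 in replicate 3, where Saa1 was highest at 171 CPM. Prtn3 shared its highest library with Saa1 in 4 of 6 groups, and so did Ngp, in 4 groups that were not all the same ones.

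**Figure D5:**
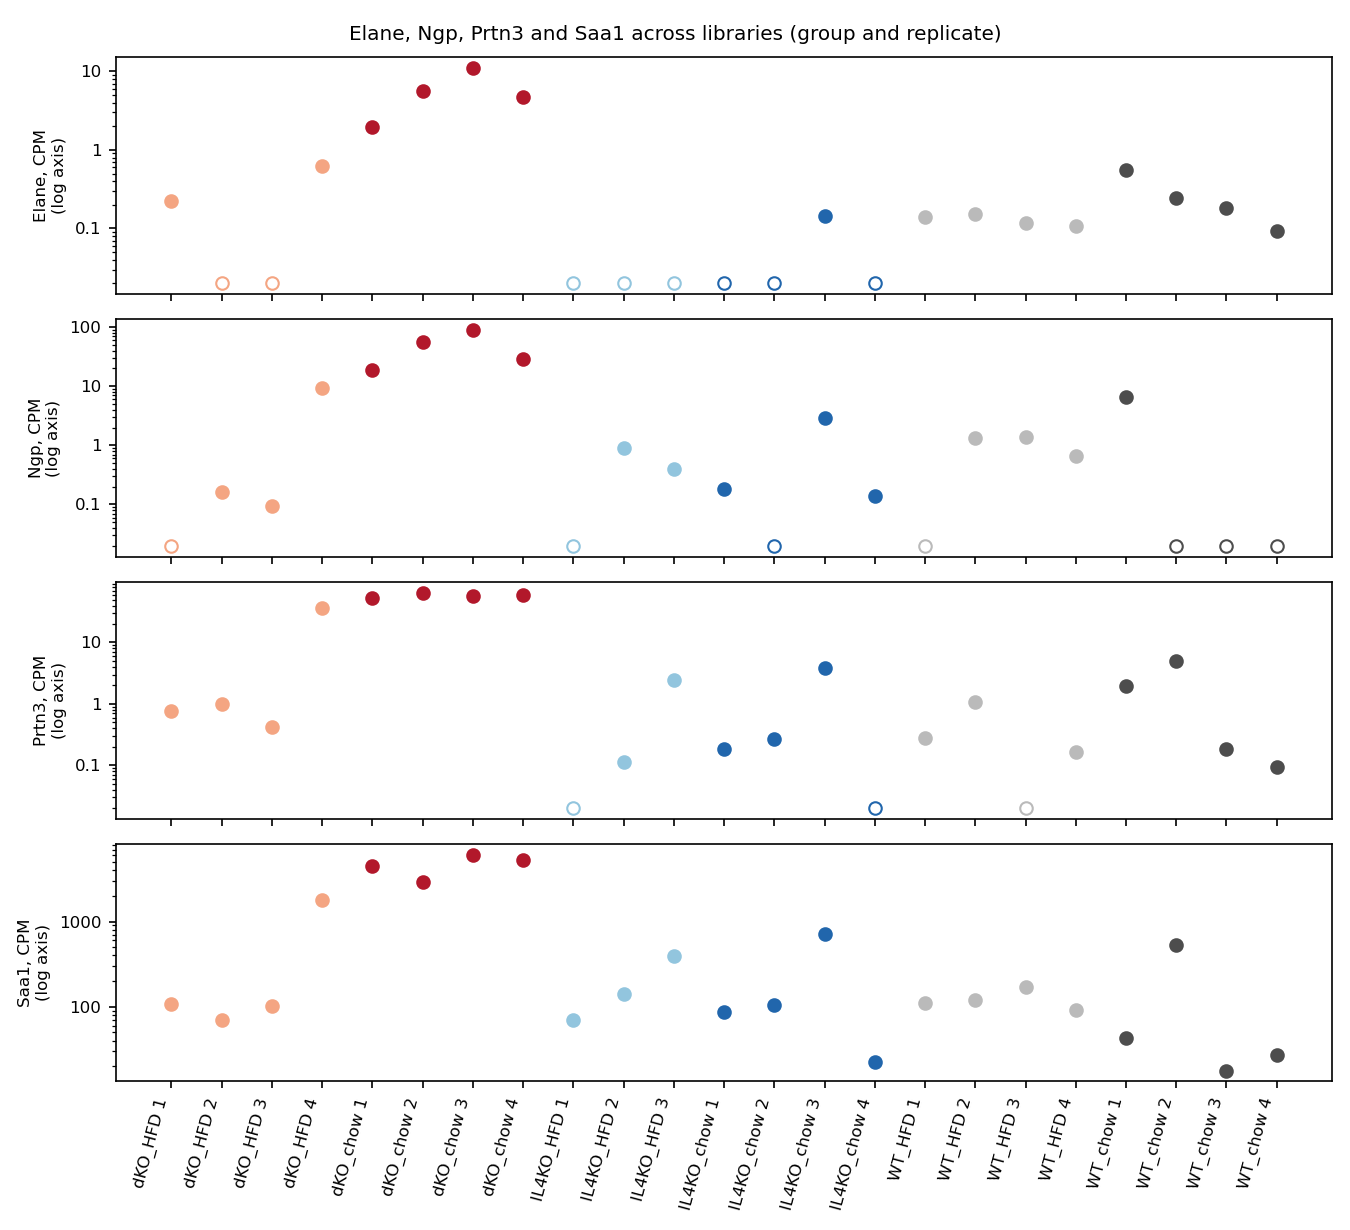
CPM (log axis) of Elane, Ngp, Prtn3 and Saa1 in each of the 23 libraries, named by group and replicate; open points had 0 counts. In WT_chow, Elane and Ngp are highest in replicate 1, whereas Prtn3 and Saa1 are highest in replicate 2, at 4.97 and 527 CPM.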

How the data were processed

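Per the labels' protocols, liver RNA went into a stranded kit for mRNA. The submitters' processing notes name bcl2fastq 2.16, TopHat2 2.0.8, Partek and the mm10 build; neither the annotation nor the strand setting of the counting is given in the sources used here. Deposited by the authors were estimated counts for each gene symbol, and log2 values of unstated scaling for 14078 genes.

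Estimated counts were rounded and fitted with edgeR 4.0.16 (R 4.3.3): filter by group (12891 genes), trimmed mean scaling, robust quasi-likelihood fit of 6 group means over 23 libraries, 17 residual degrees of freedom, two-sided tests, and Benjamini-Hochberg adjustment across the whole table, called below 0.05. Dividing the absolute log2 fold change by the root of F gave the SE. The 12 comparisons were 9 pairs and 3 interactions. CPM use the same scaling. Transcript lengths came from GENCODE M21 and promoters from RefSeq (GRCm38.p6), matched for all 10 genes. The pipeline was tested on simulated data.

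The 10 genes and all lists were chosen with earlier results of these data known. Named genes were the 10, up to 4 per list by lowest FDR in dKO_chow against WT_chow, cell type markers and the 6 nearest genes per set, with exceptions stated. Alternatives were DESeq2 1.42.0, limma 3.58.1 on the deposited log2 values, other scaling, no filter, a fit of the compared groups alone, thinning to the smallest library and leaving out each library. Intervals for counts cover counting error only.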

Additional observations from a re-analysis of the deposited data

Results flagged for a closer look

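In 21 of 49 groups of 4 libraries with counts, 1 library was far above the other 3. Its gap to the next, over the range, passed the 95% limit of Dixon's test, which is a limit for normally distributed values. Where the other 3 libraries had no counts the gap passes it by construction, as for Mpo, Camp, Ngp and Ctsg in WT_chow. Genes of 1 library are also not independent, so no chance rate is set beside these flags, which are a description. In dKO_HFD replicate 4 these were Prtn3 at 37 CPM, S100a9 at 20.3, S100a8 at 15.5, Ngp at 9.22, Ltf at 5.39, Mpo at 2.42, Camp at 1.8 and Ctsg at 0.156 CPM. In WT_chow replicate 1 they were Ngp at 6.47, Mpo at 2.4, Camp at 1.85, Ltf at 1.76 and Ctsg at 0.277 CPM. In IL4KO_chow replicate 3 they were S100a9 at 4.15, Prtn3 at 3.86, S100a8 at 3.15, Ngp at 2.86, Ltf at 1.43, Mpo at 0.715 and Elane at 0.143 CPM, the last from 1 count. In WT_HFD replicate 2 it was S100a8 at 2.08 CPM.

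Csf3r had a diet difference that differed between genotypes, at -1.88 on the log2 scale for dKO minus WT and -2.98 for dKO minus IL4KO, 2 of 30 gene interactions examined. Of all tested genes, 12.6% and 11.7% were called lower in these interactions. Csf3r had the smallest SE of the 10 genes in both, 0.49 and 0.58, and limma on the deposited log2 values called 9 and 10 of them. The flags therefore do not set Csf3r apart from the other genes.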

How the results depend on the processing

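Calls in dKO_chow against WT_chow and IL4KO_chow were kept in every leave-one-out fit, and under the other settings except Mpo against WT_chow with DESeq2. In dKO_HFD against dKO_chow, DESeq2 lost Prtn3, Mpo and Ngp, and a fit of the compared groups alone lost Prtn3. The Prtn3 call in dKO_HFD against WT_HFD gave 0 calls with no filter, with only the compared groups, with the deposited log2 values and after thinning, and 0 to 1 when 1 library was left out. In IL4KO_chow against WT_chow 1 gene, Csf3r, was called with only the compared groups, and 0 to 1 in leave-one-out fits. In the dKO minus WT interaction 2 genes were called with DESeq2, 9 with the log2 values, 0 after thinning and 1 to 8 in leave-one-out fits, with 4 without WT_chow replicate 1, 3 without dKO_chow replicate 1 and 8 without dKO_HFD replicate 4. In dKO minus IL4KO 10 were called with the log2 values and 1 to 3 in leave-one-out fits. No result changed direction among the 10 genes where called, and the causes were not tested.

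Over all genes, thinning gave 1930 calls instead of 3157 (dKO_HFD against WT_HFD), 134 instead of 323 (dKO_HFD against IL4KO_HFD), 634 instead of 1239 (IL4KO_chow against WT_chow), 176 instead of 389 (IL4KO_HFD against WT_HFD), 1472 instead of 2511 (WT_HFD against WT_chow), 635 instead of 1170 (IL4KO_HFD against IL4KO_chow), and 1825 instead of 3254 and 2019 instead of 3144 in the dKO minus WT and dKO minus IL4KO interactions. DESeq2 gave 589 instead of 323 in dKO_HFD against IL4KO_HFD. The IL4KO minus WT interaction had 6 calls, 3 after thinning, 11 with the log2 values and 68 with DESeq2. Leaving out dKO_HFD replicate 4 left the counts of the gene lists in dKO_chow against WT_chow and dKO_HFD against dKO_chow as they were, except 9 of 9 Kupffer markers higher in the first, and 3 of 3 signals and 2 of 2 megakaryocyte markers lower in the second. No paired analysis was possible because the labels give no replicate numbers. Low counts outside dKO_chow limit every fold.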
